A study of Mus musculus with 6 samples.

Results

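The mRNA of 10 growth factor receptor tyrosine kinases was followed in ID8, a cell line from mouse ovarian surface epithelium that grows as ovarian tumours when put into mice. They are the EGF receptor family members Egfr, Erbb2 and Erbb3, the HGF receptor Met, the IGF receptor Igf1r, the PDGF receptors Pdgfra and Pdgfrb, the FGF receptor Fgfr1, the Gas6 receptor Axl and the collagen receptor Ddr1. The genes were taken by symbol as receptors of these families, with earlier results of these data known. All 10 were found among 53465 genes in the table. RNA was sequenced from 3 libraries labelled KO and 3 labelled WT, numbered 4 to 6 in each group. The series describes ID8 cells stably carrying a guide against Nat10 (sgNat10) or a control guide (sgNC), and KO and WT were taken to be these lines. The NAT10 enzyme acetylates cytidine in RNA (ac4C). No other treatment is named, and it is not stated whether a line is a single clone. Guide and line cannot be told apart, and since nothing says the libraries are separate cultures, p-values measure a spread that may be technical.

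Receptor tyrosine kinases are membrane proteins that pair up when a ligand binds outside the cell and then phosphorylate each other on tyrosines inside it. Adaptor proteins dock on those tyrosines and feed the RAS to ERK cascade and the PI3K to AKT pathway, which drive growth, survival and movement. Sprouty proteins, phosphatases and ubiquitin ligases such as CBL then dampen the signal or send the receptor to the lysosome. In ovarian cancer cells the EGF receptor family, MET and AXL are among the best studied members.

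The library totals were 2234305 to 3126208 counts in the KO-labelled group and 1687466 to 2148715 in the WT group, without overlap. Nat10 itself had 315, 133 and 445 counts in KO replicates 4, 5 and 6, against 168, 128 and 292 in WT replicates 4, 5 and 6. Scaled for library size, its edgeR log2 fold change was -0.07, KO-labelled over WT. The Nat10 mRNA level thus does not check the labels, and directions below are those of the libraries as labelled. Counts did not spread evenly from 1 upwards. From 10 counts upwards, the histogram of counts, smoothed over windows of 5 counts, peaked at 42, 46 and 55 in the KO-labelled libraries. In the WT libraries it peaked at 16, 23 and 29. A gene near that value in one library can thus be at 0 in the next. Such a gene may rest on few molecules before amplification, which was not tested, and counting intervals cover counting error only. Of 12 epithelial and mesothelial markers 7 were tested, and Epcam had no count. Of the 7, edgeR called 1 higher and 2 lower at an adjusted p under 0.05 (0.402% of all 8200 tested genes were called), DESeq2 2 higher and 2 lower, and limma-voom 3. The mesothelial gene Msln rose to 1701, 1805 and 1403 CPM (counts scaled to a common library size after TMM) in KO replicates 4, 5 and 6, against 707, 873 and 787 CPM in WT replicates 4, 5 and 6 (edgeR adjusted p = 0.0145). The keratin genes Krt19 (log2 fold change -0.92 ± 0.13, SE; edgeR adjusted p = 0.00440) and Krt18 (-1.74 ± 0.31; 0.0195) fell, each without overlap of the groups. With 1 library left out the signs held, and of the 3 calls 1 was kept without KO replicate 4 or KO replicate 5, 2 without KO replicate 6, and 0 without WT replicate 5 or WT replicate 6. The summed level of the 12 was 4681 to 5337 CPM in the KO-labelled group and 6225 to 6685 CPM in the WT group. The 5 fibroblast markers, mostly Dcn and Pdpn, summed to 1151 to 1556 CPM in the KO-labelled group and 831 to 911 CPM in the WT group. Of these 2 were tested, and edgeR and limma-voom called 0. DESeq2, which called 2.66% of its genes, called 1 of them higher. Of 6 leukocyte markers, 2 had no count, Ptprc had 1 count, and their sum was 0 to 0.931 CPM in the KO-labelled group and 0 to 14.5 CPM in the WT group, all of it Cd68. Of 5 endothelial markers, 1 had no count, Pecam1 and Cdh5 had 2 and 1 counts in KO replicate 6 alone, and their sum was 0 to 1.55 CPM in the KO-labelled group and 0 to 5.996 CPM in the WT group, all of it Tek. The part of these differences in the results below was not tested.

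Among the 10 receptors, the mRNA per length of all annotated exons was mostly that of Axl, Ddr1 and Egfr. In bulk RNA, fewer cells with a transcript and less of it per cell cannot be told apart. Per length of annotated exon and per depth of library (RPKM, counts per kilobase and CPM, the scale on which levels of different genes can be compared), Axl stood first in every library. It made up 35.9%, 49.4% and 58.6% of the summed level of the 10 receptors in KO replicates 4, 5 and 6, and 44.9%, 48.0% and 26.1% in WT replicates 4, 5 and 6. Over all 6 libraries Axl averaged 59.6 ± 19.3 RPKM, Ddr1 27.4 ± 10.7 RPKM and Egfr 14.05 ± 2.18 RPKM (SD). Axl was above Ddr1, Ddr1 above Egfr and Egfr above Fgfr1 in 6 of 6 libraries, although the ranges of each neighbouring pair overlapped. Fgfr1 (9.56 ± 3.52 RPKM), Erbb3 (7.47 ± 3.85), Igf1r (5.58 ± 1.38), Met (5.44 ± 1.49) and Erbb2 (4.52 ± 3.997) followed, and neighbours among these kept their order in only 3 or 4 of 6 libraries. Pdgfra (0.212 ± 0.248 RPKM) and Pdgfrb (0.0189 ± 0.0462 RPKM) were at or near 0. The places of Fgfr1 and Igf1r in the order depend on which transcripts the cells make. With the longest transcript in place of all annotated exons, Fgfr1 averaged 18.7 RPKM and Igf1r 8.21 RPKM. Egfr averaged 15.6 RPKM on that length, so Fgfr1 then stood above Egfr by the mean over the 6 libraries. In all, 7 of the 10 genes had counts in all 6 libraries, and the 3 that did not were Erbb2, Pdgfra and Pdgfrb.

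**Figure D1:**
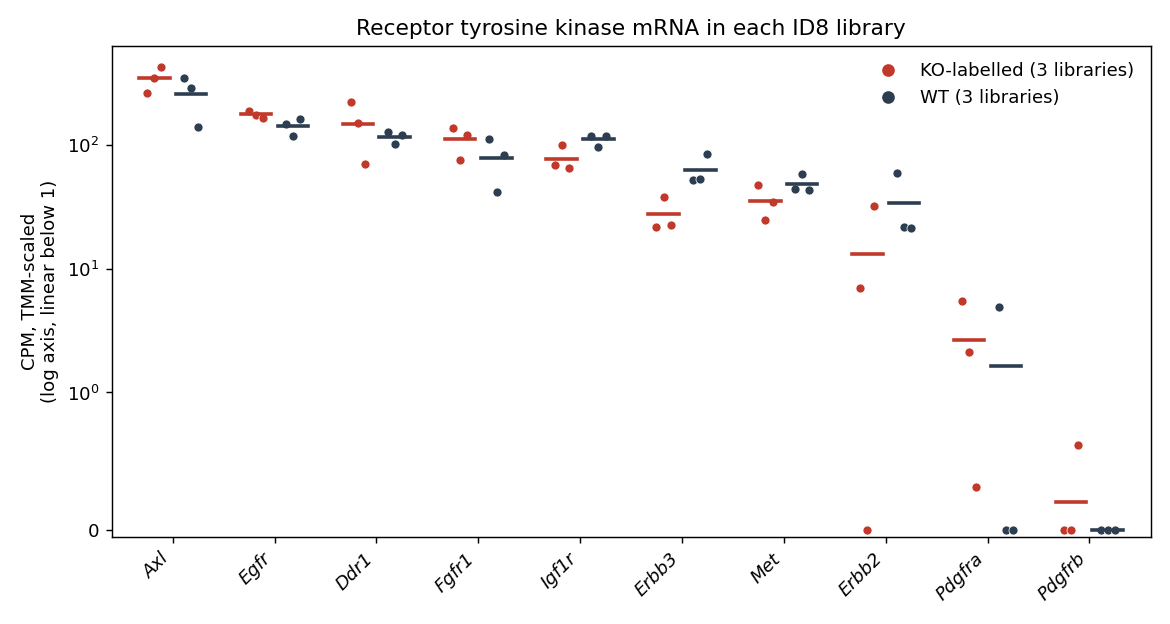
CPM of the 10 receptor genes in each library (points) with group means (lines), KO-labelled in red to the left of WT in dark blue, on a log axis that is linear below 1 CPM. Axl lies highest, Pdgfra and Pdgfrb lie near 0, and the groups do not overlap for Egfr and Erbb3.

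The start regions of these genes are shown for the most abundant receptor, for the EGF receptor and for the PDGF receptor that was nearly silent, to set the sequence beside the level. Each is 250 bases before and 50 bases after a RefSeq start site in GRCm38.p6, 5′ to 3′ on the gene's own strand. The RefSeq table held such a region for 7 of the 10 genes. The regions are chr7:25788684-25788983 on the minus strand for Axl, chr11:16751953-16752252 on the plus strand for Egfr and chr5:75152001-75152300 on the plus strand for Pdgfra. Capitals mark GGGCGG or its reverse complement CCGCCC, the core of a GC box that SP1 can bind.
Axl: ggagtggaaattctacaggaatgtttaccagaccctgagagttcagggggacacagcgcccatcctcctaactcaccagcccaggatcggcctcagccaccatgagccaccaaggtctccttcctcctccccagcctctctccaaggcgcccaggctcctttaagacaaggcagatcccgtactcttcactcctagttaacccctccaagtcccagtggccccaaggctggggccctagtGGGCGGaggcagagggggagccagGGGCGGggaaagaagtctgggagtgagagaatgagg
Egfr: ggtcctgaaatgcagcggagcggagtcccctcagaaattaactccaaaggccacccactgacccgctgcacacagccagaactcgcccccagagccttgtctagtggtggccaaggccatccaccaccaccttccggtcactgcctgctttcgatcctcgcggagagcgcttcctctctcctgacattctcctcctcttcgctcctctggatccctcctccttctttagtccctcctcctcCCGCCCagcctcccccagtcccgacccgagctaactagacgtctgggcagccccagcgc
Pdgfra: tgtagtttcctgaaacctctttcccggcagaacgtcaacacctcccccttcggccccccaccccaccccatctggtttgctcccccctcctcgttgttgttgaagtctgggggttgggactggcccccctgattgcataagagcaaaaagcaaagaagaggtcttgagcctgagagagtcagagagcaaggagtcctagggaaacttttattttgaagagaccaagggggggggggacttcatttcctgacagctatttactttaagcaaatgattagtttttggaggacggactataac
The Axl region held 2 matches to GGGCGG on either strand and the Egfr region 1, while the Pdgfra region held 0. GGGCGG on either strand was present in 35.7% of 32851 such regions. The region of Erbb2, which was expressed, also held 0, and that of Met held 3, so the presence of the motif did not follow the order of levels among these genes. TATAAA on either strand, the TATA box letters, was in none of the regions of the 7 genes and in 13.6% of all regions. The GC content was 60.3% for Axl, 62.3% for Egfr and 51% for Pdgfra, against a median of 52.7% over the table. CpG pairs numbered 6 in Axl, 15 in Egfr and 5 in Pdgfra, against a median of 7 over the table. Igf1r held 48 and Met 34, and the start regions of Ddr1, which has several, held 7 to 39. These matches describe the letters in the windows and are no evidence of binding.

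None of the 8 receptors that could be tested passed an adjusted p of 0.05 between KO-labelled and WT libraries. The estimates were above 0 for Egfr, Fgfr1, Axl and Ddr1 and below 0 for Erbb2, Erbb3, Met and Igf1r. With edgeR (quasi-likelihood test, Benjamini-Hochberg adjustment over all genes) 0.402% of all 8200 tested genes were called, and none of the 8 had an unadjusted p under 0.05, against 6.49% of all tested genes. DESeq2, which called 2.66% of its genes, and limma-voom, which called 0.524%, also called 0 of them. Groups did not overlap for 1 member in each direction, Egfr higher and Erbb3 lower, where 6.94% of all tested genes had groups apart and higher, 7.93% had them apart and lower, and 14.9% had either. The median log2 fold change of the 8 was -0.07, beside -0.02 over all tested genes. The 2 members left out by the filter on low counts, Pdgfra and Pdgfrb, are described by their counts. The intervals below are wide, so a missed threshold does not show that a receptor was at the same level in both groups.

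**Figure D2:**
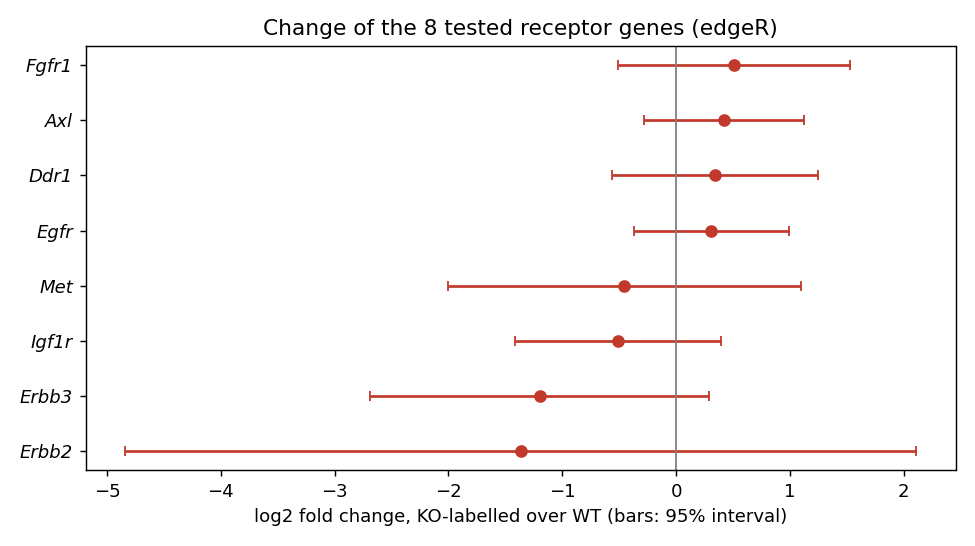
Log2 fold change of the 8 tested receptor genes, KO-labelled over WT, by edgeR (points) with 95% intervals (bars). Every interval includes 0, and that of Erbb2, from -4.84 to 2.11, is the widest.

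Erbb3 had the smallest p of the family. ERBB3 binds neuregulins but has little kinase activity of its own, and it signals through a partner such as ERBB2. Erbb3 (ENSMUSG00000018166, chromosome 10, 128567523 to 128589652 on the minus strand of mm10) had 55, 89 and 72 counts in KO replicates 4, 5 and 6, against 85, 106 and 144 counts in WT replicates 4, 5 and 6. Scaled for depth this was 21.5, 38.1 and 22.3 CPM in the KO-labelled libraries, against 51.7, 53.0 and 83.3 CPM in the WT libraries. Every KO-labelled value was under every WT value, and the groups stayed apart with library totals in place of TMM. This gave a log2 fold change of -1.20 ± 0.70 (SE; 95% interval -2.69 to 0.29) and an edgeR adjusted p of 0.974. DESeq2 gave an adjusted p of 0.415, and the estimate ran from -1.51 to -0.94 with 1 library left out.

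Erbb2, the family member with no known ligand that serves as a partner for the others, was the most erratic. Its level was 7.02, 0 and 32.3 CPM in the KO-labelled libraries, against 59.0, 21.5 and 21.4 CPM in the WT libraries. KO replicate 5 is at 0 and KO replicate 6 lies within the WT range, so the groups overlap. The log2 fold change was -1.37 ± 1.62 (SE; interval -4.84 to 2.11), and it became -3.25 without KO replicate 6 and -0.71 without WT replicate 4. Its within-group SD of 1.56 on the log2 scale was close to the median of 1.53 for the 500 tested genes nearest to it in abundance.

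Egfr, the receptor for EGF, betacellulin, amphiregulin and related ligands, was the steadiest. It stood at 188, 175 and 165 CPM in KO replicates 4, 5 and 6, against 147, 117 and 162 CPM in WT replicates 4, 5 and 6. The lowest KO-labelled value lay just above the highest WT value. Its log2 fold change was 0.31 ± 0.32 (SE; interval -0.37 to 0.99), and the edgeR adjusted p was 0.99996. The estimate was 0.19 without WT replicate 5. Its within-group SD was 0.179 on the log2 scale, where genes of like abundance had a median of 0.437.

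Axl, whose ligand is the vitamin K dependent protein GAS6, stood at 260, 346 and 426 CPM in the KO-labelled libraries, against 342, 288 and 139 CPM in the WT libraries. The groups overlap, and WT replicate 6 is the lowest of the 6. Its log2 fold change was 0.42 ± 0.33 (SE; interval -0.28 to 1.12). The estimate was 0.12 at the lowest with 1 library left out. The within-group SD of Axl, 0.545, was above the median of 0.339 for genes of like abundance. Among 4569 tested genes of at least 5 average log2 CPM, Arhgap23 (Pearson r = 0.999), Usp24 (0.988) and Arhgap5 (0.987) had the profile most like that of Axl over the 6 libraries. With 6 points, 107 genes reached an r of 0.9, and these libraries also share their depth and scaling.

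Ddr1, which is activated by collagen in place of a soluble factor, varied within the KO-labelled group. It stood at 220, 150 and 69.8 CPM in KO replicates 4, 5 and 6, against 126, 101 and 119 CPM in WT replicates 4, 5 and 6. KO replicate 4 is the highest and KO replicate 6 the lowest of the 6 libraries, and the WT values lie between KO replicates 6 and 5. The log2 fold change of 0.34 ± 0.42 (SE; interval -0.56 to 1.25) became -0.07 without KO replicate 4. Annotated exons of the gene Gm4577 cover 4.53% of those of Ddr1.

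Met, the receptor for hepatocyte growth factor, stood at 46.8, 24.8 and 34.1 CPM in the KO-labelled libraries, against 43.8, 58.5 and 42.8 CPM in the WT libraries. The groups overlap through KO replicate 4, and the log2 fold change was -0.45 ± 0.73 (SE; interval -2.01 to 1.10). It was -0.70 without KO replicate 4, -0.30 without WT replicate 5 and -0.25 without KO replicate 5. Igf1r, the receptor for insulin-like growth factors, stood at 67.9, 99.3 and 64.5 CPM in the KO-labelled libraries, against 117, 95.4 and 118 CPM in the WT libraries. KO replicate 5 reaches into the WT range, and the log2 fold change was -0.51 ± 0.42 (SE; interval -1.42 to 0.40). Fgfr1, a receptor for fibroblast growth factors, stood at 137, 74.9 and 120 CPM in the KO-labelled libraries, against 110, 41.5 and 82.7 CPM in the WT libraries. WT replicate 5 is the lowest and the groups overlap, with a log2 fold change of 0.51 ± 0.48 (SE; interval -0.51 to 1.53) that was 0.20 without WT replicate 5, 0.33 without KO replicate 4 and 0.84 without WT replicate 4. The edgeR adjusted p was 0.99996 for each of Axl, Ddr1, Met, Igf1r and Fgfr1.

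The PDGF receptors, which mark fibroblasts and pericytes, were at the limit of detection. Pdgfra had 14, 5 and 1 counts in KO replicates 4, 5 and 6, against 8, 0 and 0 counts in WT replicates 4, 5 and 6. The ratio of summed, depth-scaled counts was 1.65, with an exact 95% counting interval of 0.698 to 4.34. Exons of other genes, Gm42802 and Gm42803 among them, cover 6.50% of its exons, and the sources used here do not say whether reads were counted by strand. Pdgfrb had 2 counts, both in KO replicate 6, and 0 in every other library. That library holds 462 genes with 1 to 3 counts that are at 0 in the other 5, where the other libraries hold 139 to 199 such genes. A count of 0 in the WT group allows a level of up to 0.558 CPM over its 3 libraries.

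Many ligand genes had no count, and of the 9 that could be tested, Tgfa, Hbegf, Areg, Ereg, Btc and Nrg1 belong to the EGF family. Of 26 soluble ligand genes of these receptor families, 13 had no count in any library, which allows up to 0.222 CPM over the 6 libraries. Among the 13 were Egf, Hgf, Igf2, Pdgfa, Fgf1, Fgf2 and Fgf7. Whether each ligand acts on a member or only on a relative was not tested, so 13 is no count for the members alone. Igf1 had 1 count in all. Of 9 tested ligand genes 0 passed in edgeR. At an unadjusted p under 0.05 there was 1 higher (Btc) and 1 lower (Gas6), where 2.7% of all tested genes were higher and 3.79% lower at that level, and DESeq2 called 0. The median log2 fold change of the 9 was 0.91 and 8 of the estimates were above 0, beside a median of -0.02 over all tested genes. Tgfa, Areg and Nrg1 passed the filter on low counts mainly through KO-labelled libraries, and Gas6 through WT libraries. The filter thus partly fixed the sign of these estimates, and the median and signs are no measure of a change of the ligands as a set.

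Betacellulin, encoded by Btc, binds EGFR and ERBB4, and its mRNA was the most abundant among the soluble ligands per length, at 24.4 RPKM over the 6 libraries. Btc had 387, 388 and 367 counts in KO replicates 4, 5 and 6, against 130, 119 and 158 counts in WT replicates 4, 5 and 6. It averaged 144 ± 26.9 CPM in the KO-labelled group and 76.6 ± 16.1 CPM in the WT group (SD, n = 3 each), without overlap. Btc had a log2 fold change of 0.91 ± 0.40 (SE; interval 0.05 to 1.76), and the edgeR adjusted p was 0.697. Amphiregulin, encoded by Areg, had 71, 40 and 81 counts in the KO-labelled libraries, against 0, 28 and 0 counts in the WT libraries (edgeR adjusted p = 0.99996). Its groups do not overlap, at 17.1 CPM in the lowest KO-labelled library and 13.99 CPM in the highest WT library. Neuregulin 1, a ligand of ERBB3 encoded by Nrg1, had 69, 2 and 74 counts in the KO-labelled libraries, against 0, 14 and 0 counts in the WT libraries. The last 2 genes show how a ligand at this level is present in one library and at or near 0 in the next.

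Gas6, the ligand of AXL, was close to 0 in the KO-labelled group. It had 0, 0 and 1 counts in KO replicates 4, 5 and 6, against 23, 19 and 52 counts in WT replicates 4, 5 and 6. The ratio of WT over KO-labelled summed, depth-scaled counts was 142, with an exact 95% counting interval of 24.9 to 5669. The edgeR adjusted p was 0.647 and that of DESeq2 0.0750, so Gas6 was not called, although every KO-labelled value lay under every WT value. Pros1, the other ligand of this receptor class, had 1 count in all, in KO replicate 6.

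**Figure D3:**
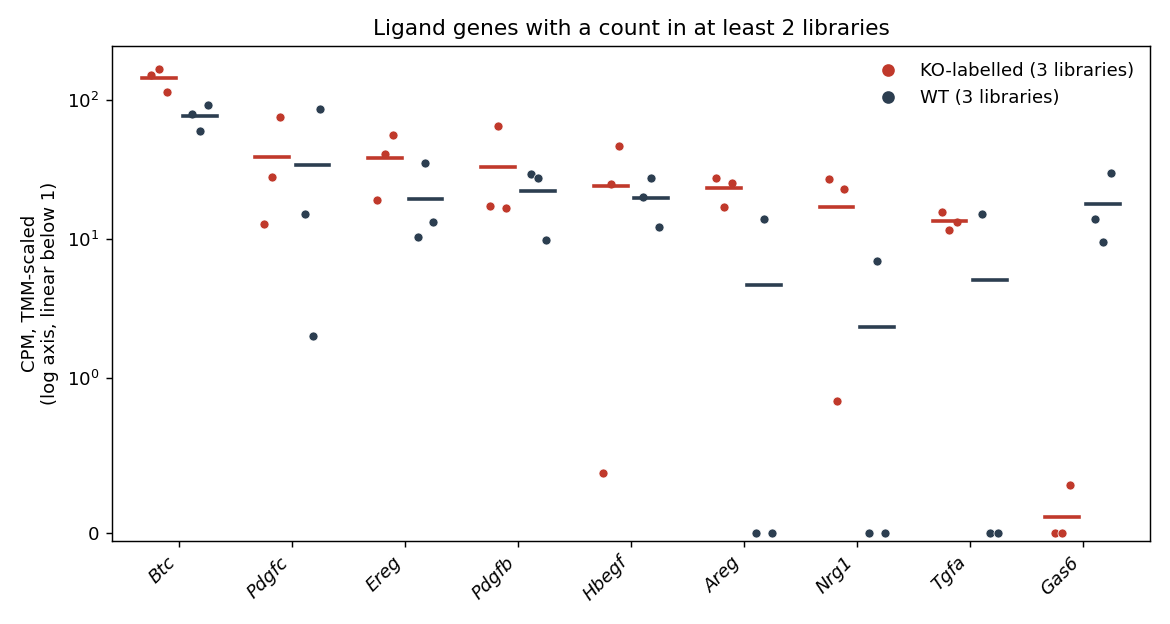
CPM of the 9 soluble ligand genes with a count in at least 2 libraries (points) with group means (lines), KO-labelled in red to the left of WT in dark blue, on a log axis that is linear below 1 CPM. Btc and Areg lie higher and Gas6 lower in the KO-labelled group without overlap, and the groups of the other genes overlap.

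Collagens that can engage DDR1 stood on both sides of 0. Of 6 listed genes 3 were tested and 0 passed in edgeR. Col1a1 alone among them had an unadjusted p under 0.05, and it was also called by DESeq2. Of all tested genes 6.49% had such an edgeR p, and DESeq2 called 2.66% of its genes. Col1a1, a chain of type I collagen, stood at 6.17 ± 8.77 CPM in the KO-labelled group and 67.1 ± 21.9 CPM in the WT group (SD, n = 3 each; edgeR adjusted p = 0.479, DESeq2 0.0281). Its counts were 1, 38 and 6 in KO replicates 4, 5 and 6, against 120, 171 and 74 in WT replicates 4, 5 and 6, and its partner chain Col1a2 had counts only in KO replicate 6. The type IV collagen chains Col4a1 and Col4a2, of basement membrane, had log2 fold changes of 0.61 ± 0.29 and 0.65 ± 0.38 (SE), with edgeR adjusted p-values of 0.807 and 0.980. The estimate of Col4a2 was 0.36 without KO replicate 6 and 1.03 without KO replicate 4.

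Proteins that hold IGFs outside the cell included the gene nearest to the threshold. Of 8 listed genes 4 were tested and 0 passed in edgeR, with a median log2 fold change of 0.53. The 4 include the receptor gene Igf2r, with a log2 fold change of 0.19, so the median is not that of the Igfbp genes alone. At an unadjusted p under 0.05 in edgeR there was 1 higher and 1 lower, where 2.7% of all tested genes were higher and 3.79% lower. Igfbp7, a secreted protein that binds IGFs weakly, averaged 1333 ± 269 CPM in the KO-labelled group and 725 ± 50.3 CPM in the WT group (SD, n = 3 each), without overlap. Its log2 fold change was 0.88 ± 0.19 (SE), with an edgeR adjusted p of 0.0657. DESeq2 (6.8e-05) and limma-voom (0.0373) called Igfbp7 higher, as did edgeR with library totals and without the filter on low counts. Igfbp6, which prefers IGF2, had 90, 0 and 237 counts in KO replicates 4, 5 and 6, against 327, 252 and 278 counts in WT replicates 4, 5 and 6 (edgeR adjusted p = 0.683). Igfbp4 had 96, 59 and 34 counts in the KO-labelled libraries, against 1, 20 and 0 counts in the WT libraries (edgeR adjusted p = 0.99996).

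Other receptors of the same families were fewer. Of 14 such genes 4 had no count, 2 had counts in all 6 libraries, 4 were tested and 0 passed in edgeR or DESeq2 or had an unadjusted edgeR p under 0.05. Tyro3, a close relative of Axl that also binds GAS6 and protein S, had 130, 101 and 139 counts in KO replicates 4, 5 and 6, against 17, 0 and 0 counts in WT replicates 4, 5 and 6. The groups do not overlap, and the ratio of summed, depth-scaled counts was 14.4 with an exact 95% counting interval of 8.87 to 25.0. That interval covers counting error only. The edgeR log2 fold change was 3.72 with an interval of -0.08 to 7.52, which includes 0. Tyro3 passed the filter on low counts mainly through the KO-labelled libraries, which partly fixed the sign of its estimate. The edgeR adjusted p was 0.793 and that of DESeq2 0.118. Mertk, another gene of the Axl class, had no count in any library. Fgfr2 had 55, 35 and 0 counts in the KO-labelled libraries, against 9, 1 and 0 counts in the WT libraries. Insr, the insulin receptor and partner of Igf1r, averaged 45.8 ± 14.4 CPM in the KO-labelled group and 64.0 ± 10.9 CPM in the WT group (SD, n = 3 each; edgeR adjusted p = 0.99996).

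Set among 53 receptor tyrosine kinase genes of these and other families, 5 of the 10 members stood in the top 10 per length by the mean over 6 libraries. By that mean Epha2, an ephrin receptor, was first, at 98.1 ± 2.66 RPKM in the KO-labelled group and 60.2 ± 24.2 RPKM in the WT group (SD, n = 3 each). Epha2 lay above Axl in 4 of 6 libraries, and Axl above Epha2 in WT replicates 4 and 5. Axl had rank 2, Ddr1 rank 3, Egfr rank 5, Fgfr1 rank 9 and Erbb3 rank 10. Erbb3 had rank 15 by the mean of the KO-labelled group and rank 7 by that of the WT group, so 4 members were in the top 10 of the KO-labelled group and 5 in that of the WT group. Of the 29 receptors of other families 10 were tested and 0 passed in edgeR or DESeq2, while 1 higher and 1 lower had an unadjusted edgeR p under 0.05. Over all tested genes 2.7% were higher and 3.79% lower at that level. Epha2 had a log2 fold change of 0.70 ± 0.28 (SE; edgeR adjusted p = 0.564), without overlap of the groups, and Epha4 one of 0.81 ± 0.46 (SE; edgeR adjusted p = 0.956). Without WT replicate 6 these were 1.08 and 1.32, and that of Epha4 was 0.42 without KO replicate 5. Epha7 had 0 counts in every KO-labelled library, against 13, 22 and 35 counts in WT replicates 4, 5 and 6. The edgeR adjusted p was 0.581, and the interval of the log2 fold change was -14.60 to -1.16. With the KO-labelled group set at 3 counts over the group the level is at least 35.3-fold lower, a bound that covers counting error only. Epha7 passed the filter on low counts through the WT libraries alone, which partly fixed the sign of its estimate.

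**Figure D4:**
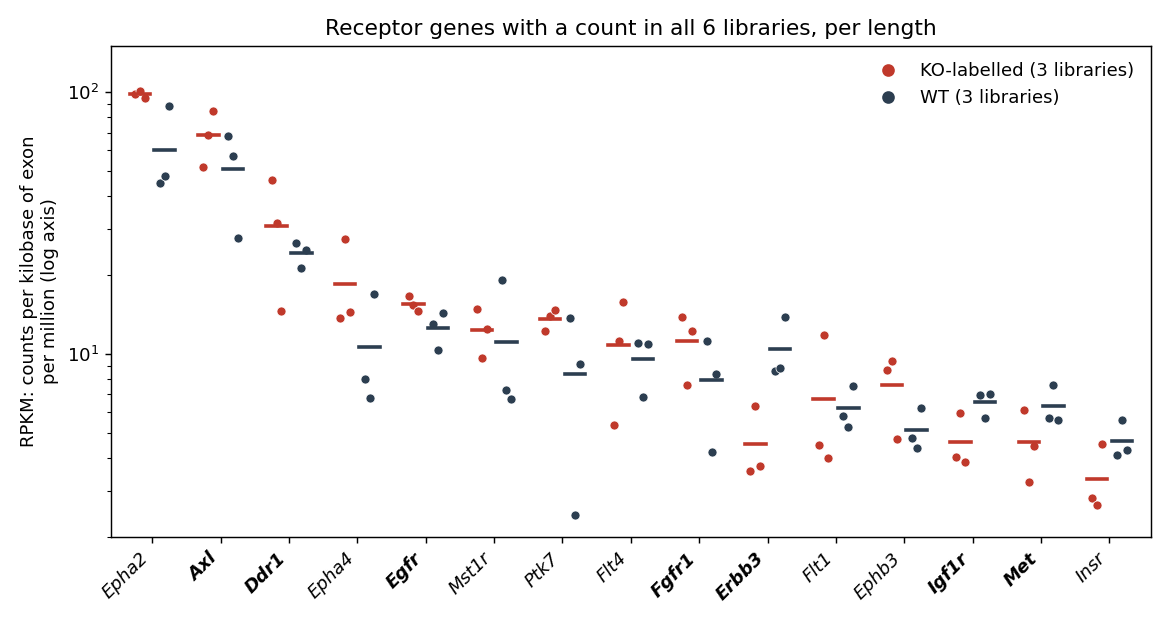
RPKM of the 15 receptor tyrosine kinase genes with a count in all 6 libraries (points) with group means (lines), KO-labelled in red to the left of WT in dark blue, on a log axis; the 7 members among them are in bold. Epha2, Axl and Ddr1 lie highest, and Erbb3 is the member whose KO-labelled points lie under all of its WT points.

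Of the genes that carry the signal inside the cell, all but 1 had a count in at least 1 library, though often not in every library. Of 46 adaptor, RAS, RAF, ERK, PI3K and AKT pathway genes 32 had counts in all 6 libraries, and of 42 tested 0 passed in edgeR, with 22 estimates above 0 and a median log2 fold change of 0.09. Irs2, a docking protein of the IGF and insulin receptors, was the 1 gene with an unadjusted p under 0.05 and the 1 gene called by DESeq2. Among all tested genes 6.49% had an unadjusted edgeR p under 0.05, and DESeq2 called 2.66% of its genes. Such counts in this list are therefore no result about the list. Irs2 is described here as a single gene. It had 53, 47 and 120 counts in KO replicates 4, 5 and 6, against 237, 204 and 131 counts in WT replicates 4, 5 and 6. It averaged 26.0 ± 9.72 CPM in the KO-labelled group and 107 ± 34.5 CPM in the WT group (SD, n = 3 each), without overlap. Irs2 had a log2 fold change of -2.04 ± 0.56 (SE; interval -3.23 to -0.85). The edgeR adjusted p was 0.245, while that of DESeq2 was 0.00509. Irs1, the other main docking protein, had 38 counts in KO replicate 4, 1 in WT replicate 5 and 0 elsewhere. Map2k2, the kinase MEK2 that activates ERK, had a log2 fold change of 1.28 ± 0.62 (SE; edgeR adjusted p = 0.808), and the growth regulator Mtor one of -0.91 ± 0.50 (SE; edgeR adjusted p = 0.924).

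Genes that dampen or clear receptors gave 1 call by DESeq2 and none by edgeR. Of 29 listed genes 23 were tested, 13 with an estimate below 0, and the median log2 fold change was -0.16. Sh3kbp1 encodes CIN85, an adaptor that links CBL to the uptake of activated receptors. Sh3kbp1 had 0, 0 and 1 counts in KO replicates 4, 5 and 6, against 32, 51 and 42 counts in WT replicates 4, 5 and 6. The ratio of WT over KO-labelled summed, depth-scaled counts was 189, with an exact 95% counting interval of 33.3 to 7519. That interval covers counting error only. Sh3kbp1 passed the filter on low counts through the WT libraries, which partly fixed the sign of its estimate. The edgeR adjusted p was 0.547 and that of DESeq2 0.0220, and no other gene of the list had an unadjusted edgeR p under 0.05. Over all tested genes 6.49% had such a p, and DESeq2 called 2.66% of its genes. Usp8, a deubiquitinase that acts on receptors in endosomes, had a log2 fold change of 1.12 ± 0.57 (SE; edgeR adjusted p = 0.858), and the sheddase gene Adam10 one of -0.48 ± 0.33 (SE; edgeR adjusted p = 0.99996), which was -0.28 without WT replicate 6.

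Target genes of the ERK cascade stood on both sides of 0, with 7 estimates above and 2 below. Of the 10 genes of a published ERK output score (MPAS) 9 were tested and 0 passed in edgeR or DESeq2. At an unadjusted edgeR p under 0.05 there was 1 higher and 1 lower, where 2.7% of all tested genes were higher and 3.79% lower. The median log2 fold change of the 9 was 0.15. Epha2 and Epha4, described above, belong to this score. Dusp6, the phosphatase induced by ERK that switches it off, averaged 297 ± 65.2 CPM in the KO-labelled group and 292 ± 41.5 CPM in the WT group (SD, n = 3 each), a log2 fold change of 0.02 with an interval of -0.55 to 0.59. Ccnd1, encoding cyclin D1, averaged 146 ± 83.2 CPM in the KO-labelled group and 296 ± 41.2 CPM in the WT group (SD, n = 3 each), without overlap. Its log2 fold change was -1.02 ± 0.39 (SE; edgeR adjusted p = 0.547), and -0.68 without KO replicate 6.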

How the data were processed

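Poly(A) RNA was selected from TRIzol-extracted total RNA of 6 libraries, per the labels' protocols. The submitters' processing notes name fastp, HISAT2 2.0.5, featureCounts 1.5.0-p3 and the build mm10; settings, strand mode and annotation release were not stated. The authors deposited whole-number read counts for each gene and did not normalize them. Columns were matched to samples through the labels. Symbols, exon lengths and mm10 coordinates came from GENCODE M21, which matched 53360 of 53465 gene IDs, and start regions from RefSeq.

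The test was that of edgeR 4.0.16, run under R 4.3.3 (filterByExpr with a minimum count of 10, TMM, robust quasi-likelihood, group as the only term, two-sided, Benjamini-Hochberg over 8200 genes, threshold 0.05). SEs and intervals of log2 fold changes follow from the quasi-likelihood F statistic. CPM and RPKM use TMM-scaled sizes; RPKM divides by the union of annotated exons. Ratios of summed counts have exact Clopper-Pearson intervals, and a group at 0 was set at 3 counts. Scripts were tested on simulated counts. The members and the 8 other lists were chosen with earlier results of these data known. The genes named are the members, Nat10, the 3 smallest p-values of each list and the 3 genes most like the most abundant member. Others, such as Areg, Pros1, Mertk, Igf1, Irs1, Col1a2, Dusp6, Flt1, Flt4 and Kdr, were named after their values were seen. Alternatives were DESeq2 1.42.0, limma-voom (limma 3.58.1), DESeq2 size factors, library totals, no filter, a filter of 1 CPM in 3 libraries, a replicate block, each library left out, thinning, and other lengths.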

Additional observations from a re-analysis of the deposited data

How the results depend on the processing

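No member was called under any of the 13 alternatives fitted to all genes, and with every library thinned to the smallest total the number of members with counts in all 6 libraries stayed at 7. Estimates of the 8 tested members kept their sign under all of these except Ddr1, which ran from -0.068 without KO replicate 4 to 0.676 without KO replicate 6. Nat10 turned to 0.026 with library totals and 0.019 in limma-voom, and ran from -0.353 without WT replicate 5 to 0.352 without WT replicate 6. Over all genes, the count of calls of 33 became 236 in DESeq2 and 91 without a filter on low counts, and 6 to 29 with 1 library left out (leaving out KO replicate 4, 5 or 6 gave 15, 20 or 18 calls, and leaving out WT replicate 5 or 6 gave 6 calls each). The number of calls in the lists became 1 in place of 0 in DESeq2 for the collagens (Col1a1), the IGF binding proteins (Igfbp7), the signal relay genes (Irs2) and the feedback genes (Sh3kbp1), and 1 for Igfbp7 with library totals, in limma-voom and without the filter. The 3 calls among the epithelial and mesothelial markers ran from 0 to 3 with 1 library left out. With the longest transcript as length, Igf1r averaged 8.21 and Fgfr1 18.7 RPKM, which put Fgfr1 above Egfr at 15.6 RPKM. The other 8 members moved by less than their SD. Same-numbered libraries did not deviate together (r of -0.02, -0.003 and -0.007 between same numbers), so the labels' numbers were not taken as pairs; with the replicate block 38 genes and 0 members were called. At this depth the 95% intervals of the members span from 1.37 (Egfr) to 6.95 (Erbb2) on the log2 scale.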

Other observations

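ID8 cells also carried mRNA of VEGF receptors that are best known from endothelium. Flt1, encoding VEGFR1, averaged 91.1 ± 58.8 CPM in the KO-labelled group and 83.5 ± 16.2 CPM in the WT group (SD, n = 3 each), and Flt4, encoding VEGFR3, 88.6 ± 42.8 CPM in the KO-labelled group and 78.9 ± 19.4 CPM in the WT group. Both had counts in all 6 libraries, with edgeR adjusted p-values of 0.99996. Kdr, encoding VEGFR2, had 2 counts in KO replicate 6 and 0 elsewhere, as Cdh5 and Vwf of endothelium had 1 each in that library alone. Mst1r, the MET relative that binds macrophage stimulating protein, averaged 61.5 ± 12.9 CPM in the KO-labelled group and 55.4 ± 35.3 CPM in the WT group (edgeR adjusted p = 0.99996). It stood above Met per length, at 11.7 RPKM against 5.44 RPKM over the 6 libraries.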
